A study of Mus musculus with 70 samples.

Results

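The hippocampus of APP23 mice on time-restricted feeding was compared at lights-off with the hippocampus of APP23 mice on the same feeding at lights-on. The members are the libraries labelled transgenic, restricted-fed and taken at zeitgeber time 12 (ZT12, lights off; 5 animals) or ZT0 (lights on; 6 animals), which are 11 of the 70 libraries in the series. APP23 mice (TG) express a human amyloid precursor protein transgene, with a mutation found in familial Alzheimer disease, under the Thy1 promoter, which is active mainly in neurons. Both sets of animals had food for 6 h of each day, from ZT15 to ZT21 (TRF). At ZT12 the last food had therefore ended 15 h earlier and at ZT0 3 h earlier. The ZT12 animals were killed in darkness and the ZT0 animals in light. Time of day, light at death and time since food changed together, and they cannot be told apart within this comparison. All mice of both sets were TG and were housed singly under a 12:12 cycle of light and dark. They were killed at an age of 10 to 13 months, having begun TRF when 6 to 9 months old. Libraries are named by time and animal number, as in ZT12_104, and the ZT12 values of a gene run in the order ZT12_24, ZT12_104, ZT12_121, ZT12_126 and ZT12_220. Both sexes were used in the study, but no library's sex is given. The other 3 combinations of genotype and feeding, TG fed ad libitum (TG on ALF), non-transgenic littermates (NTG) on TRF and NTG on ALF, serve only to show where the restricted-fed APP23 mice differ.

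The circadian clock of each cell is a feedback loop: BMAL1 and CLOCK activate the Per, Cry, Nr1d and Dbp genes, the PER and CRY proteins then block BMAL1 and CLOCK, and the NR1D proteins repress the Bmal1 gene. In nocturnal rodents corticosterone, the main glucocorticoid, peaks near lights-off or before an expected meal, and its receptor raises a set of genes in the hippocampus, a brain region rich in that receptor. Cold-inducible RNA-binding proteins and chaperones follow body temperature and protein load, and body temperature is low in the rest phase of a mouse and high in its active phase.

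Values are normalized counts, gene counts divided by 1 factor per library by the authors, and fold changes are differences of mean log2(normalized count + 1), ZT12 minus ZT0, with the standard error (SE). A gene was called when limma's adjusted p over all 14260 genes was under 0.05. Estimated depth over the listed genes was 33.1 to 42.2 M reads at ZT12 and 32.1 to 40.2 M reads at ZT0. Thy1, whose promoter drives the transgene, had 116700 to 171320 normalized counts at ZT12 and 118930 to 147530 at ZT0, above the 14727 to 29068 in the 33 NTG libraries, while mouse App had 47930 to 61505 at ZT12 and 39312 to 61766 at ZT0, within the range of the NTG libraries (47704 to 69328) or below it. Ttr, the main secreted product of the choroid plexus, was over 50000 normalized counts in 3 of 5 libraries at ZT12 and 3 of 6 at ZT0. The mean log2 level of 16 choroid plexus markers gave a difference of 0.25, ZT12 minus ZT0 (two-sided exact permutation test over 462 splits, p = 0.926, smallest possible 0.0043). Library ZT12_104 had the lowest median correlation with the other libraries among the 11 (0.970, the others 0.976 to 0.983), and Rn45s, ribosomal RNA, made up 3.68% and 4.48% of libraries ZT0_321 and ZT0_323, against 0.0751% to 0.451% in all ZT12 libraries and 0.0628% to 0.394% in the other 4 at ZT0.

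Between ZT12 and ZT0, 506 genes differed: 295 were lower at ZT12 (2.07% of 14260), and the rest, 41.7% of the 506, were higher (1.48% of 14260). The median size of the called changes was 0.47 on the log2 scale, and 39 of the 506 were over 1. Of all genes, 178 (1.25%) had every ZT12 animal above every ZT0 animal and 198 (1.39%) had every ZT12 animal below. Of the 506 called genes, 235 had groups that did not overlap. Leaving out library ZT12_104 brought the 506 calls (3.55% of genes) to 236 (1.65%), and the share called was 2.19% without ZT12_121 and 2.16% without ZT0_321. Without both ZT0_321 and ZT0_323, the ZT0 animals with numbers above 300, 235 genes were called (1.65%). A fit of the 11 libraries alone, without the spread of the other groups, called 192 genes, of which 179 were among the 506, and array weights called 1079. No called gene changed direction in any of these fits, and 55 of the 87 called genes named here kept their call whichever of the 11 libraries was left out.

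The genes with the smallest p among those higher at ZT12 included clock genes, the cold-inducible pair and members of the glucocorticoid list: Ciart, Dbp, Tspan4, Rbm3, Klf15, Mthfd1l, Fmo2, Cirbp, Nr1d2, Hmgb3, Plin4 and Fkbp5. Of these, Fmo2, a flavin-containing monooxygenase, had 424, 207, 287, 458 and 486 normalized counts at ZT12, against 42.5 to 128 (median 84.3) at ZT0, a log2 change of 2.11 ± 0.30 (adjusted p = 3.4e-06). Its lowest ZT12 value lay above its highest ZT0 value. Hmgb3, a chromatin protein, averaged 755 ± 108.8 at ZT12 and 393 ± 70.2 at ZT0 (SD, n = 5 and 6; change 0.94 ± 0.14, adjusted p = 1e-05). The genes with the smallest p among those lower at ZT12 were Glt8d2, Rbm28, Bmal1, Lmcd1, Hsph1, Chordc1, Gramd2b, Rngtt, Calr, Hsp90b1, Oga and Ccdc190. Glt8d2, a glycosyltransferase-like gene, had 529, 569.6, 487, 551 and 510.2 normalized counts at ZT12, against 849 to 1144 (median 942) at ZT0 (change -0.87 ± 0.10, adjusted p = 2e-08). Its groups did not overlap, and neither did those of Rbm28, an RNA-binding protein of the nucleolus (change -0.76 ± 0.10, adjusted p = 1.4e-06), of Lmcd1 (-0.91 ± 0.13, 3.6e-06), Gramd2b (-0.69 ± 0.11, 1.5e-05) or Ccdc190 (-0.84 ± 0.13, 2.5e-05). Oga, the enzyme that removes O-linked N-acetylglucosamine from proteins, fell slightly (-0.37 ± 0.06, adjusted p = 2.4e-05), and Rngtt, the mRNA capping enzyme, fell by more (-0.57 ± 0.09, adjusted p = 1.9e-05).

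By size of change among called genes whose groups did not overlap, Plin4, Hif3a, Gabrr2, Fmo2 and Ciart rose most and Gm3948, Casq2, Chst3, Fabp7 and Erich5 fell most. Gabrr2, a subunit of the GABA-A rho receptor, had 87.8, 160.1, 234.2, 85.5 and 112 normalized counts at ZT12, against 14.2 to 81 (median 27.4) at ZT0 (change 2.14 ± 0.39, adjusted p = 3e-04); library ZT0_323 was the highest at ZT0 and nearly reached the ZT12 animals. Casq2, a calcium-binding protein of the sarcoplasmic reticulum, had 23.2, 17.9, 41.7, 25.4 and 12.3 at ZT12, against 49.8 to 95.4 (median 61.5) at ZT0 (change -1.50 ± 0.26, adjusted p = 0.00013). Chst3, which sulfates chondroitin chains of the extracellular matrix, averaged 52.6 ± 7.87 at ZT12 and 134.7 ± 26.2 at ZT0 (change -1.33 ± 0.23, adjusted p = 8.7e-05). Fabp7, a fatty acid binding protein of astrocytes and radial glia, averaged 322.6 ± 103 at ZT12 and 691 ± 133.8 at ZT0 (change -1.14 ± 0.24, adjusted p = 0.0023). Erich5 changed by -1.13 ± 0.24 (adjusted p = 0.0018), and the low-count Gm3948 by -1.51 ± 0.44 (adjusted p = 0.035), a call that ended without any of 6 of the 11 libraries (largest adjusted p 0.19).

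Among the clock genes, the negative arm was higher at ZT12 and Bmal1 was lower. Of 10 repressors of the loop, 7 rose and none fell, beside 1.48% of all genes called higher. Their median change was 0.45, against a median of 0.00 over all genes. In the fit of the 11 libraries alone 4 of the 10 rose, and likewise 4 without ZT0_321 and ZT0_323. Of 6 activators, only Bmal1 passed the test. Of 4 output transcription factors of the PAR bZIP type and their rival, Dbp rose and Nfil3 fell. Bmal1, which activates the loop, had 719, 1075, 921, 904 and 859 normalized counts at ZT12, against 1213 to 1622 (median 1384) at ZT0 (change -0.64 ± 0.09, adjusted p = 3.6e-06). Every ZT12 animal was below every ZT0 animal. The partner genes of Bmal1 did not pass the test: Clock gave -0.39 ± 0.15 and Npas2, a second partner, 0.07 ± 0.15 (adjusted p = 0.14 for Clock and 0.85 for Npas2). The ROR genes Rora and Rorb, which activate Bmal1, did not pass either, with estimates of -0.15 ± 0.27 for Rora (adjusted p = 0.83) and -0.34 ± 0.21 for Rorb (adjusted p = 0.43).

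Ciart, which encodes a repressor of BMAL1 and CLOCK, was the strongest clock gene of the comparison. It had 1009, 815, 996, 1172 and 751 normalized counts at ZT12, against 219.6 to 297 (median 254) at ZT0, a 3.7-fold rise (log2 change 1.89 ± 0.16, adjusted p = 7.8e-13). The lowest ZT12 animal stood far above the highest ZT0 animal. The 250 bases upstream of the Ciart start (RefSeq, GRCm38.p6, chr3:95882229-95882478, minus strand) are shown because they hold 3 copies of the E-box, CACGTG, the element bound by BMAL1 and CLOCK; the copies are in capitals and the sequence reads 5′ to 3′ toward the start.
Ciart: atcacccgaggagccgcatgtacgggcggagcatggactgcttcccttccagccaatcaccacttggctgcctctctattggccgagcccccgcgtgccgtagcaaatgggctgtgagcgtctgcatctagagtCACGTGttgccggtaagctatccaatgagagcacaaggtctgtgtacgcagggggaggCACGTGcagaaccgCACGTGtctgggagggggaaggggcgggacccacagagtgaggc
The E-box was found in this window in 5 of the 16 core clock genes that had one (Per1, Cry1, Ciart, Bhlhe41 and Tef) and in 9.75% of all 11019 measured genes with a window. A match is a string of letters and not a shown binding site. The palindrome reads the same on both strands. In the same 16 genes the ROR element AGGTCA, on either strand, was found in 4 (Clock, Per1, Nr1d2 and Nfil3) against 13% of measured genes, and the D-box TTANGTAA in 2 (Rorb and Per3) against 1.66%.

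The Period genes code for proteins that enter the nucleus and stop their own activation. Per1 had 3429.8, 2766, 3751, 3751 and 3553 normalized counts at ZT12, against 1695 to 2875 (median 2204) at ZT0 (change 0.61 ± 0.14, adjusted p = 0.0069), and only library ZT12_104 of the ZT12 animals fell inside the ZT0 range. Per2 had 1403, 1051, 1459, 1945 and 2542 at ZT12, against 671 to 1290.1 (median 1071) at ZT0 (change 0.67 ± 0.17, adjusted p = 0.016), with overlap and with its call lost without ZT12_126 (0.064), ZT12_220 (0.085) or ZT0_211 (0.067). Per3 did not pass (change 0.37 ± 0.13, adjusted p = 0.092). Cry1, which codes for the other partner of PER, rose by 0.41 ± 0.10 (adjusted p = 0.011; 0.059 without library ZT12_220), and Cry2 gave 0.29 ± 0.10 (adjusted p = 0.081).

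The nuclear receptors that repress Bmal1 rose as well. Nr1d2 had 5334, 4322, 5290.2, 5149 and 5937 normalized counts at ZT12, against 2889 to 3936 (median 3538) at ZT0 (change 0.57 ± 0.08, adjusted p = 6.8e-06), without overlap. Nr1d1 rose only a little, by 0.28 ± 0.08 (adjusted p = 0.04), with overlapping groups and a call that ended without any of 6 libraries (largest adjusted p 0.25). The DEC proteins compete with BMAL1 and CLOCK for E-boxes. Bhlhe41 rose by 0.49 ± 0.14 (adjusted p = 0.033), and its call ended without any of 8 libraries (largest adjusted p 0.091). Bhlhe40 gave 0.27 ± 0.12 and did not pass (adjusted p = 0.2).

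Among the output factors, Dbp, a transcription factor driven directly by BMAL1 and CLOCK, had 2222, 2734, 2407, 2716 and 2424 normalized counts at ZT12, against 742 to 1115 (median 839) at ZT0, a 2.92-fold rise (log2 change 1.55 ± 0.16, adjusted p = 2.6e-10). The groups lay far apart, and the highest ZT0 animal was ZT0_129. Its relatives Tef and Hlf bind the same D-box sites. Tef averaged 16036 ± 513 at ZT12 and 15126 ± 2177 at ZT0 (change 0.10 ± 0.08, adjusted p = 0.59) and Hlf 6527 ± 437 at ZT12 and 6081 ± 835 at ZT0 (change 0.11 ± 0.11, adjusted p = 0.66). Nfil3, the repressor that competes with Dbp for those sites, had 250.3, 201, 220.3, 208 and 278 at ZT12, against 289 to 509 (median 410.4) at ZT0 (change -0.75 ± 0.18, adjusted p = 0.0084), without overlap. Of 13 other genes that modify or follow the clock, Usp2, a deubiquitinase, rose by 0.49 ± 0.08 (adjusted p = 8.3e-05) and Tspan4, a tetraspanin, by 0.83 ± 0.10 (adjusted p = 1.9e-07).

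The animals of the other times give means to set beside both ends of the day. All animals at ZT6 and ZT18 had numbers above 300, as did ZT0_321 and ZT0_323 but no ZT12 animal. Time and number series therefore cannot be told apart when ZT6 or ZT18 is compared with ZT12. Over ZT0, ZT6, ZT12 and ZT18 (n = 6, 4, 5 and 3), mean Dbp in TG on TRF was 859, 1938, 2501 and 1419 normalized counts. Mean Ciart was 254, 538, 949 and 374 in the same order, so both genes were highest at ZT12 of the 4 times. Mean Bmal1 was 1392, 1078, 896 and 1067, the highest of its 4 means at ZT0 and the lowest at ZT12. Per2 and Cry1 behaved otherwise: their means at ZT18, 1627 for Per2 and 829 for Cry1, were within 1 SD of their ZT12 means, which were 1680.1 ± 578 and 808 ± 149.

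**Figure D1:**
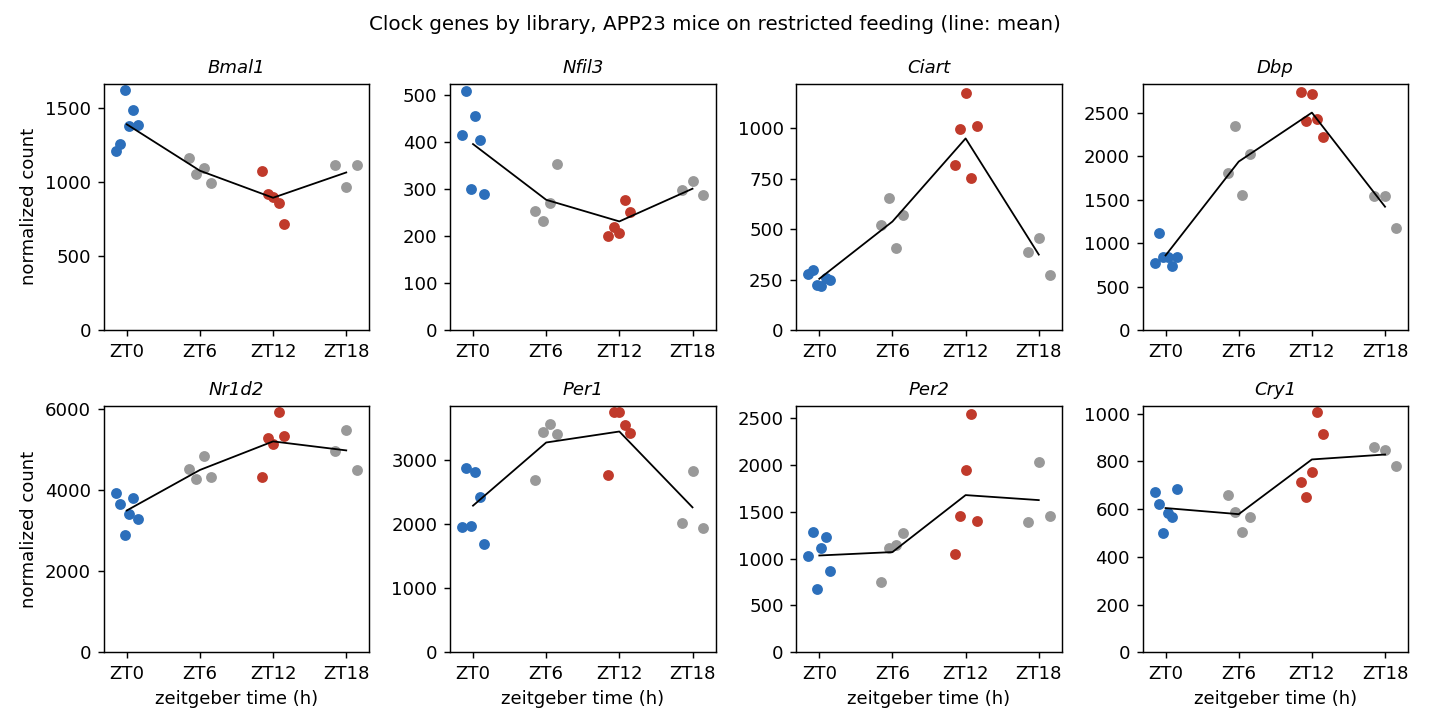
Normalized counts (y axis, from 0) of 8 clock genes in the 18 TG on TRF libraries against zeitgeber time in h (x axis); each point is 1 animal, red at ZT12, blue at ZT0 and grey at ZT6 and ZT18, and the line joins the means. Dbp and Ciart are highest at ZT12 and Bmal1 and Nfil3 are lowest there, with no overlap between ZT12 and ZT0 animals in these 4 genes.

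Most genes of the glucocorticoid list were higher at ZT12. This list, like the others, was chosen with earlier results of these data known, so its share of calls is not an independent test. Of 25 measured genes of the glucocorticoid list, 16 rose and none fell, beside 1.48% called higher and 2.07% called lower over all genes. The median change of the list was 0.75, and 22 of the 25 estimates were positive. The negative estimates were those of Bcl6 and of the receptor genes Nr3c1 and Nr3c2. In the fit of the 11 libraries alone 12 rose and 1 fell, and with array weights 20 rose and 2 fell. The list level, the mean log2 value of its genes, was 10.92 to 11.20 at ZT12 and 10.09 to 10.80 at ZT0. Library ZT0_323 stood apart at ZT0, at 10.80, while the other 5 ended at 10.27. Without library ZT0_323, 17 genes of the list rose and its median change was 0.85. The number that rose was 9 without library ZT12_104, 10 without library ZT12_121 and 11 without library ZT0_211, and the median stayed between 0.66 and 0.85 whichever library was left out. In bulk tissue, fewer cells of a type and less RNA per cell cannot be told apart, here and in all results that follow.

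Plin4, a coat protein of lipid droplets, was the largest of these changes. It had 929, 1871, 2395, 1024 and 1803 normalized counts at ZT12, against 151 to 486 (median 157) at ZT0, a 7.71-fold rise (log2 change 2.95 ± 0.44, adjusted p = 1.3e-05). All 5 ZT12 animals were above all ZT0 animals, of which library ZT0_323 was the highest. Hif3a, an inhibitor-like member of the hypoxia-inducible factor family, had 1124, 797, 1489.6, 788 and 811 at ZT12, against 105 to 436 (median 196) at ZT0, a 4.68-fold rise (log2 change 2.23 ± 0.34, adjusted p = 1.7e-05). Again ZT0_323 was the highest ZT0 animal, and the groups did not overlap. Fkbp5, a co-chaperone that damps the glucocorticoid receptor, had 2992, 2899.9, 3011, 2780.5 and 2896 at ZT12, against 1509.8 to 1984 (median 1646) at ZT0 (change 0.80 ± 0.12, adjusted p = 1.5e-05). The 5 ZT12 values of Fkbp5 lay close together. Tsc22d3, the glucocorticoid-induced leucine zipper, had 4108, 3990.2, 3765, 4158 and 4263 at ZT12, against 1438 to 3479.9 (median 1797) at ZT0 (change 1.05 ± 0.17, adjusted p = 4.3e-05), without overlap.

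The Krüppel-like factors, hormone-responsive transcription factors, rose with them. Klf15 had 1484, 1898, 1775, 1586 and 1450 normalized counts at ZT12, against 781 to 1191 (median 877) at ZT0 (change 0.83 ± 0.12, adjusted p = 2.4e-06), and Klf9 rose by 0.35 ± 0.07 (adjusted p = 0.0012), both without overlap. Map3k6, a stress-activated kinase, rose by 1.09 ± 0.21 (adjusted p = 0.00066), also without overlap, and Mertk, a receptor for the uptake of dead cells, by 0.46 ± 0.10 (adjusted p = 0.0029), with overlap. Each of these 4 calls, and those of Plin4, Hif3a, Fkbp5 and Tsc22d3, held with every one of the 11 libraries left out in turn.

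Weaker members depended on single libraries. Sgk1, a kinase that regulates ion channels, had 7416, 7611, 9001, 6206 and 7109.7 normalized counts at ZT12, against 2057 to 7365 (median 2799.8) at ZT0 (change 1.23 ± 0.32, adjusted p = 0.018). Library ZT0_323 reached the level of the ZT12 animals, and the call ended without ZT12_104 (0.052), ZT12_121 (0.056), ZT0_7 (0.054) or ZT0_211 (0.05). Arl4d, a small GTPase, rose by 1.12 ± 0.29 (adjusted p = 0.018; lost without any of 3 libraries, largest 0.057). Nfkbia, the inhibitor of NF-kB, rose by 0.78 ± 0.19 (adjusted p = 0.011; 0.061 without ZT12_104, 0.05 without ZT12_121), Sult1a1, a sulfotransferase, by 0.88 ± 0.22 (0.012; 0.05 without ZT12_104, 0.054 without ZT12_121), and Gjb6, the astrocyte connexin 30, by 0.46 ± 0.12 (0.019; 0.074 without ZT12_104, 0.062 without ZT0_211, 0.052 without ZT0_321). Cdkn1a, the cell-cycle inhibitor p21, had 575, 1010.3, 1328, 449 and 484 at ZT12, against 231 to 460.5 (median 351) at ZT0 (change 1.05 ± 0.28, adjusted p = 0.019). Libraries ZT12_104 and ZT12_121 were well above the rest at ZT12, and the call ended without either of them (0.11 without ZT12_104, 0.13 without ZT12_121) and without ZT0_211 (0.057) or ZT0_321 (0.056). Mt2, a metallothionein, rose by 1.08 ± 0.30 (0.03; lost without any of 6 libraries, largest 0.087), and Errfi1, an inhibitor of the EGF receptor, by 0.38 ± 0.11 (0.048; lost without any of 7, largest 0.17).

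Of the members that did not pass, Mt1 gave 0.75 ± 0.29, Ddit4 0.70 ± 0.25 and Txnip 0.57 ± 0.21. The receptor gene Nr3c1 itself had 3811, 3258, 3449.8, 3662 and 4151 normalized counts at ZT12, against 4151 to 5058 (median 4694) at ZT0 (change -0.34 ± 0.11, adjusted p = 0.06), so its estimate pointed down without passing. In the 250-base window, the palindromic glucocorticoid element ACANNNTGT was found in 5 of 23 list members, against 4.6% of measured genes. Holders were Sgk1 and Map3k6, which rose, and Mt1, Fam107a and Txnip, which did not pass. Among the 16 called members with a window, 2 held the element.

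**Figure D2:**
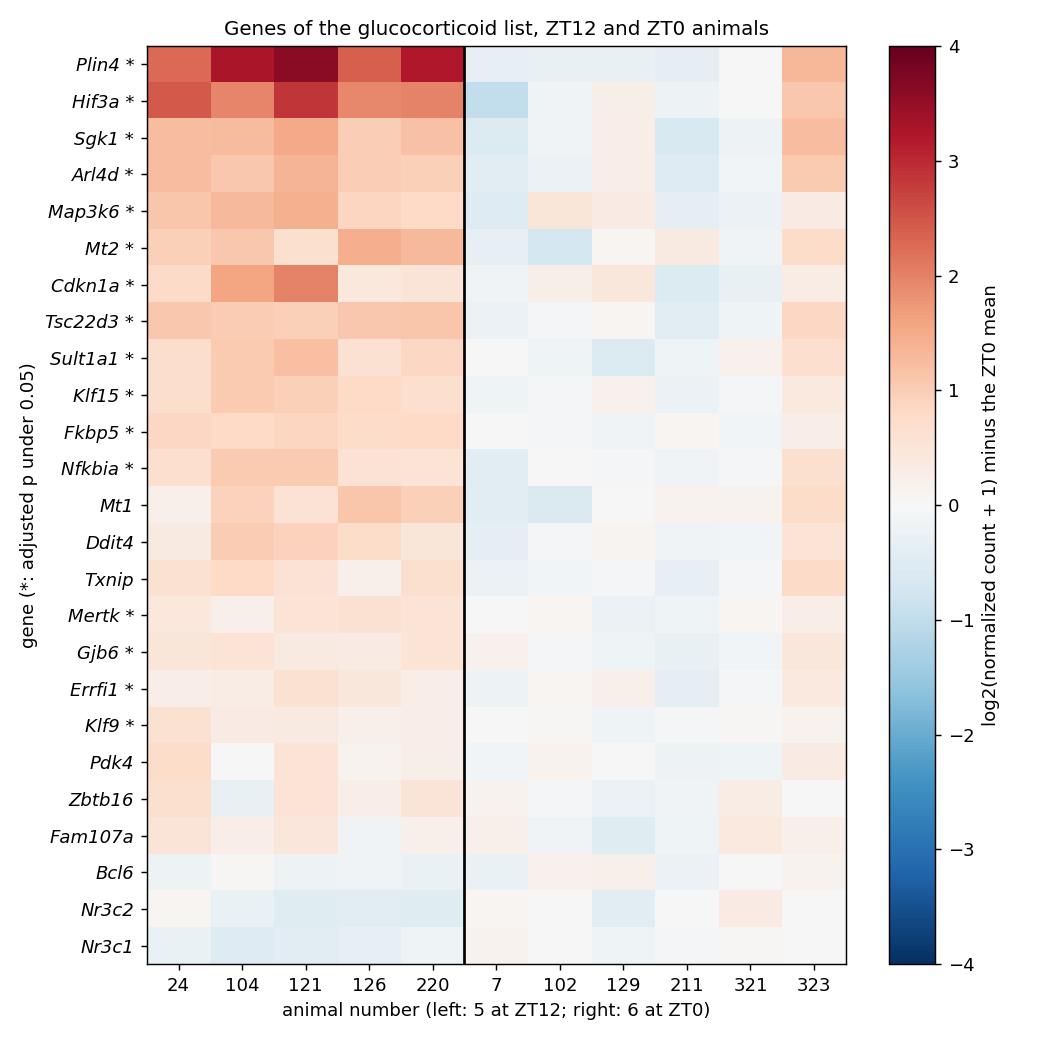
Log2(normalized count + 1) minus the ZT0 mean (colour) of the 25 genes of the glucocorticoid list (rows, by size of change; an asterisk marks adjusted p under 0.05) in the 11 animals (columns, ZT12 left, ZT0 right). The ZT12 columns are red for nearly all of the upper rows, and animal ZT0_323 is the ZT0 column most like them.

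Over all genes 3.55% were called. In the lists of fuel use, here and in the next paragraph, few genes were called, though each list's share was above that. The difference in share was not tested. Of 29 genes of fatty acid and ketone use, 2 rose. The list median was 0.05, and 12 of the 29 estimates were negative. Angptl4, an inhibitor of lipoprotein lipase that is induced by fasting, had 133, 350.2, 210.7, 145 and 209 normalized counts at ZT12, against 61.5 to 120.4 (median 91.3) at ZT0 (change 1.19 ± 0.35, adjusted p = 0.04), without overlap. Its call ended without any of 7 libraries (largest adjusted p 0.2, without ZT12_104). Bdh1, which interconverts ketone bodies, rose by 0.30 ± 0.08 (adjusted p = 0.016; 0.083 without ZT12_104, 0.056 without ZT0_102). Pnpla2, the adipose triglyceride lipase, was not in this list. It had 1079, 1428, 1470.4, 957 and 762 at ZT12, against 532 to 802 (median 651) at ZT0 (change 0.78 ± 0.16, adjusted p = 0.001), with 4 of 5 ZT12 animals above all ZT0 animals.

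Of 24 genes of insulin and FOXO signalling, 2 glucose transporters rose and a kinase fell. Slc2a1, the glucose transporter of the blood-brain barrier and of glia, had 3398, 3668, 3930, 3573 and 2686 normalized counts at ZT12, against 1795 to 3004 (median 2143) at ZT0 (change 0.63 ± 0.15, adjusted p = 0.0069). Only library ZT12_220 fell inside the ZT0 range. Slc2a4, the insulin-responsive transporter, was low in this tissue, with 157, 119.6, 123, 83.8 and 77.8 at ZT12, against 27.2 to 55.5 (median 46.7) at ZT0 (change 1.30 ± 0.36, adjusted p = 0.025; lost without any of 4 libraries, largest 0.079). Akt2, the insulin-signalling kinase, fell by 0.46 on the log2 scale (2147 to 2715 at ZT12, 2910.2 to 3893 at ZT0, adjusted p = 0.0055), without overlap. Of 29 genes driven by ATF4 or used in 1-carbon metabolism, 4 rose (1 in the fit of the 11 libraries alone): Mthfd1l, a mitochondrial folate enzyme, by 0.77 ± 0.11 (adjusted p = 2.9e-06), the serine hydroxymethyltransferase Shmt1 by 0.61 ± 0.15 (0.0084), the alanine transaminase Gpt2 by 0.37 ± 0.09 (0.0071) and the amino acid transporter Slc7a5 by 0.44 ± 0.12 (0.031; lost without any of 6 libraries, largest 0.14). Of 26 genes of cholesterol synthesis, Mvk, mevalonate kinase, rose by 0.38 ± 0.11 (adjusted p = 0.026; lost without any of 6 libraries, largest 0.079).

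The cold-inducible RNA-binding proteins rose at ZT12, and several chaperones fell. Both genes of that pair rose: Rbm3 had 3015, 4787, 3629.5, 3444 and 3297 normalized counts at ZT12, against 1577 to 2115 (median 1679.6) at ZT0 (change 1.03 ± 0.13, adjusted p = 6.4e-07), and Cirbp had 3130, 4766, 3772, 3419 and 2486 at ZT12, against 1258 to 2295 (median 1696) at ZT0 (change 1.03 ± 0.15, adjusted p = 5.1e-06). Neither gene's groups overlapped, and library ZT12_104 was the highest ZT12 animal in both.

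Of 29 chaperones and folding enzymes of the endoplasmic reticulum (ER), 5 fell and 1 rose. Over all genes 2.07% were called lower and 1.48% higher. The list median was -0.10 and 21 of 29 estimates were negative. In the fit of the 11 libraries alone 3 of the list fell. Calr, a calcium-binding lectin chaperone, had 6208, 5802, 5006, 5287 and 5965 normalized counts at ZT12, against 6602 to 12147 (median 8479) at ZT0 (change -0.60 ± 0.09, adjusted p = 2e-05), and library ZT0_102 was the highest ZT0 animal. Hsp90b1, the ER form of HSP90, had 11122, 8075, 8826, 9326 and 11855 at ZT12, against 12216 to 17824 (median 14434) at ZT0 (change -0.59 ± 0.09, adjusted p = 2e-05). Pdia6, a disulfide isomerase, averaged 3109.9 ± 342 at ZT12 and 4660.1 ± 877 at ZT0 (change -0.57 ± 0.09, adjusted p = 5.3e-05). In these 3 genes no ZT12 animal reached a ZT0 animal. Hspa5, the main ER chaperone BiP, had 8140.4, 6926, 6874, 7629 and 11201 at ZT12, against 7498 to 18051 (median 11648) at ZT0 (change -0.55 ± 0.12, adjusted p = 0.0029), with ZT12_24, ZT12_126 and ZT12_220 inside the ZT0 range. Pdia3 fell by 0.36 on the log2 scale (adjusted p = 0.0049), also with overlap. Herpud1, a protein of ER-associated degradation, went the other way, with 2176 to 2472 at ZT12, against 1498 to 2154 at ZT0 (change 0.30 ± 0.08, adjusted p = 0.017; 0.091 without ZT12_104, 0.067 without ZT0_7, 0.074 without ZT0_211).

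The ER stress element, CCAAT and CCACG with 9 bases between them, is the site through which ATF6 raises ER chaperones. Searched on both strands of the 250-base window, it was found in 8 of the 24 list members that had a window and in 16 of 11019 measured genes (0.145%). The holders were Hspa5, Hsp90b1, Calr, Canx, Pdia6, Dnajc3, Creld2 and Syvn1, of which the first 3 and Pdia6 fell here and the other 4 did not pass. The windows of those 4 are shown because they carry the element, printed in capitals (RefSeq, GRCm38.p6, 5′ to 3′ toward the start; Hspa5 chr2:34771840-34772089, plus strand; Hsp90b1 chr10:86705445-86705694, minus strand; Calr chr8:84846932-84847181, minus strand; Pdia6 chr12:17266339-17266588, plus strand).
Hspa5: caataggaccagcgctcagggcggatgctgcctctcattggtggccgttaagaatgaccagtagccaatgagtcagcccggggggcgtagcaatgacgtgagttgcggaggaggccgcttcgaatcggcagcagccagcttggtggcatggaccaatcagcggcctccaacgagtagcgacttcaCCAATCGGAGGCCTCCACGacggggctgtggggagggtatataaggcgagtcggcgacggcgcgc
Hsp90b1: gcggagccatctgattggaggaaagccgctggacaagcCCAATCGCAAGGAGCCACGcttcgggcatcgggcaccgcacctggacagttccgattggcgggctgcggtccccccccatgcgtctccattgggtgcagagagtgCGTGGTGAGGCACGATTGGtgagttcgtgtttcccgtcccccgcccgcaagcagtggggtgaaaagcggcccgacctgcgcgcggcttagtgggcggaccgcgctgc
Calr: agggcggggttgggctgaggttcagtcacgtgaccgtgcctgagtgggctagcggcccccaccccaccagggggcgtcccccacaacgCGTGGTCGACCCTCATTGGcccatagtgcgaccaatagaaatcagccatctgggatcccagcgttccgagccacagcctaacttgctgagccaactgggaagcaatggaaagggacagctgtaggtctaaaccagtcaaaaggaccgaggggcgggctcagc
Pdia6: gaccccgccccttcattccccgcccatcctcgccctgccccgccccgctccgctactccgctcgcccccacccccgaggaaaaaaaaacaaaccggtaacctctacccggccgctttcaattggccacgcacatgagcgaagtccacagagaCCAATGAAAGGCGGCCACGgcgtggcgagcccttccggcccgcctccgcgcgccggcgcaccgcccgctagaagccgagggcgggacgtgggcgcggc
In Hsp90b1 the element occurs in both orientations, and in Calr only as the reverse complement. Canx, Dnajc3, Creld2 and Syvn1 carry the same string without a called change.

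Of 31 heat-shock and co-chaperone genes of the cytosol and mitochondria, 6 fell and none rose, beside 2.07% of all genes called lower. The list median was -0.12 and 24 of 31 estimates were negative. In the fit of the 11 libraries alone 2 of the list fell. Hsph1, a nucleotide exchange factor of HSP70, had 9606, 7219, 7781, 8696 and 9669 normalized counts at ZT12, against 11121 to 14138 (median 12019) at ZT0 (change -0.53 ± 0.08, adjusted p = 1.2e-05), without overlap. Chordc1, an HSP90 co-chaperone, had 1437, 1525, 1913, 2021 and 2687 at ZT12, against 2649.8 to 3883 (median 2959) at ZT0 (change -0.70 ± 0.11, adjusted p = 1.4e-05); only library ZT12_220 overlapped. Stip1, which links HSP70 and HSP90, fell by 0.35 on the log2 scale (adjusted p = 0.0023), without overlap, and Dnaja4 by 0.29 (adjusted p = 0.011; 0.055 without ZT0_102). Hspa4 gave -0.28 ± 0.07 (adjusted p = 0.016; lost without any of 3 libraries, largest 0.13) and Hspa8, the constitutive HSP70, -0.36 ± 0.10 (0.033; lost without any of 7, largest 0.14). The heat shock element GAANNTTC was found in the window of 9 of 24 list members, against 6.02% of measured genes, and 1 of the holders, Dnaja4, was among those that fell.

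**Figure D3:**
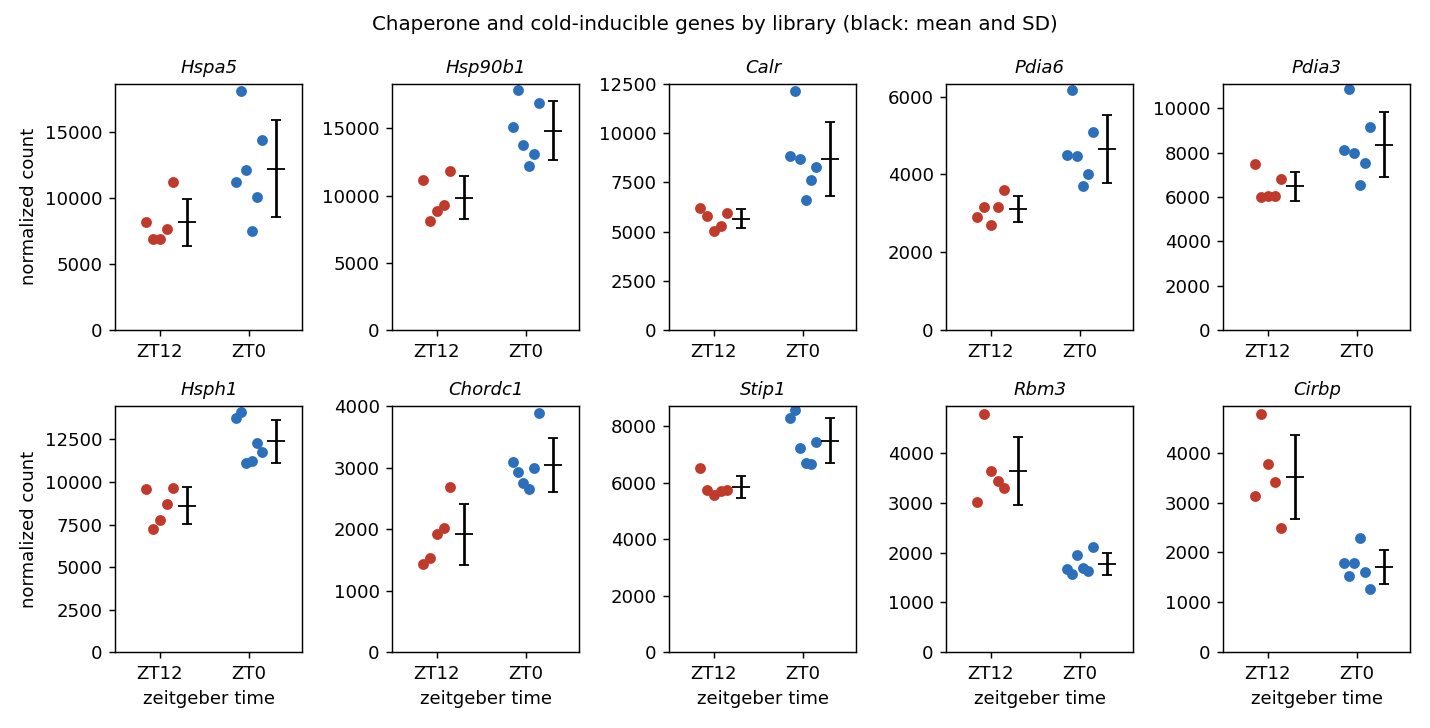
Normalized counts (y axes, from 0) of 8 chaperone genes and the 2 cold-inducible genes in the 5 ZT12 animals (left, red) and 6 ZT0 animals (right, blue) of TG on TRF; each point is 1 animal and black marks give the mean and SD. The chaperones are lower at ZT12, and Rbm3 and Cirbp are higher with no overlap.

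In the lists of neuronal activity, channels, respiration and splicing that follow, 1 or 2 genes of each list passed, beside 3.55% over all genes. Of 42 immediate early genes, 2 fell and none rose: Nr4a3, an orphan nuclear receptor, by 0.56 on the log2 scale (adjusted p = 0.018; lost without any of 4 libraries, largest 0.1) and Homer1, a scaffold of glutamate receptors, by 0.36 (adjusted p = 0.027; lost without any of 5, largest 0.14). Of 31 listed glutamate and GABA receptor genes, only the kainate receptor subunit Grik2 passed (-0.37 ± 0.10, adjusted p = 0.027; lost without any of 4 libraries, largest 0.17). Gabrr2, the GABA-A rho subunit that rose by 2.14 (adjusted p = 3e-04), was not in that list. Among 27 potassium channel genes, Kcnj4 rose by 0.40 ± 0.12 (0.044; lost without any of 8, largest 0.18). All 31 respiratory chain genes had positive estimates with a median of 0.17, and 1, Uqcrc1, passed (0.34 ± 0.09, adjusted p = 0.018; lost without any of 3 libraries, largest 0.16). Among 32 splicing factors, Hnrnpc fell by 0.40 on the log2 scale (5915 to 6553 normalized counts at ZT12, 7657 to 9822 at ZT0, adjusted p = 0.00018).

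Several glial markers fell at ZT12. Of 10 microglial markers, all 10 estimates were negative and 2 passed, beside 2.07% of all genes called lower. Itgam, an integrin of microglia, had 783, 580.0, 556, 1123 and 789 normalized counts at ZT12, against 996 to 1205 (median 1117) at ZT0 (change -0.58 ± 0.11, adjusted p = 0.00045), and library ZT12_126 lay inside the ZT0 range. Cx3cr1, the microglial fractalkine receptor, had 1898, 1858, 1854, 1768 and 1382 at ZT12, against 2028 to 2979 (median 2524) at ZT0 (change -0.51 ± 0.11, adjusted p = 0.0024), without overlap. The summed level of the 10 markers was 13369 to 16533 at ZT12 and 15885 to 18487 at ZT0, which overlapped. None of 21 measured genes of the plaque-associated microglial state passed, with a median of 0.01. None of 26 genes of amyloid processing passed either, with a median of 0.01.

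In the oligodendrocyte lineage, Ugt8a, which makes the myelin lipid galactosylceramide, had 1269, 886, 1110, 1522 and 1704 normalized counts at ZT12, against 2087 to 2816 (median 2298) at ZT0 (change -0.92 ± 0.16, adjusted p = 0.00011). Ermn, a protein of mature oligodendrocytes, fell by 0.53 on the log2 scale (adjusted p = 0.006). Other oligodendrocyte markers did not follow: 7 of 13 estimates were positive, the list median was 0.08, and Mbp gave 0.09 (adjusted p = 0.76). Olig2, the lineage transcription factor, had 635, 996, 1023, 821 and 621 at ZT12, against 1174 to 1389 (median 1289) at ZT0 (change -0.69 ± 0.14, adjusted p = 0.001), without overlap. Gpr17, a receptor of precursor cells, gave -0.44 ± 0.13 (adjusted p = 0.045; lost without any of 7 libraries, largest 0.22).

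Single genes of other cell types also fell, beside 2.07% of all genes called lower. They were 1 of 11 astrocyte, 1 of 12 endothelial, 1 of 7 dentate gyrus and 1 of 7 excitatory neuron markers. Estimates were positive for 3, 4, 1 and 3 markers of these lists, and the list medians were -0.11, -0.34, -0.31 and -0.10. Aqp4, the astrocyte water channel, fell by 0.54 on the log2 scale (adjusted p = 0.027; lost without any of 5 libraries, largest 0.14), Kdr, the endothelial VEGF receptor, by 0.83 (0.011; 0.083 without ZT12_104, 0.059 without ZT0_7), and the dentate gyrus marker Glis3 by 0.64 (0.033; lost without any of 5, largest 0.15). Mmp14, a membrane metalloproteinase and the only called gene of 29 measured genes of matrix and collagen, had 322.4 to 527 normalized counts at ZT12 and 502 to 1048 at ZT0 (change -0.72 ± 0.16, adjusted p = 0.0047). The summed level of 10 meningeal markers was 34427 to 46662 at ZT12 and 19145 to 31971 at ZT0, without overlap. Most of it was Ptgds, 24665 to 40584 normalized counts at ZT12 and 14382 to 20438 at ZT0, and none of the 10 passed (Ptgds 0.80 ± 0.37, adjusted p = 0.26). The part of dissected meninges in the results was not tested.

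The test against the other 3 groups asked whether the difference between ZT12 and ZT0 in restricted-fed APP23 mice was unlike theirs. In those groups 1.01% of the 14260 genes were called higher and 1.21% lower in TG on ALF, 0.231% higher and 0.351% lower in NTG on TRF, and 0.940% higher and 1.23% lower in NTG on ALF. Called in the same direction in TG on TRF and in all other groups were 14 higher and 22 lower genes. Of the genes higher in TG on TRF, 96.7% had the same sign in TG on ALF, 93.4% in NTG on TRF and 88.6% in NTG on ALF, beside 50.2%, 51.4% and 51.4% of all genes with a positive estimate there, and 63, 21 and 38 of them were called. These overlaps were 29.9%, 9.95% and 18.01% of the genes higher in TG on TRF, and 43.8%, 63.6% and 28.4% of the genes higher in the other groups. Of the 295 lower genes, 290, 278 and 276 had the same sign in these groups, where 49.8%, 48.6% and 48.6% of all genes had a negative estimate, and 72, 32 and 64 were called, which is 24.4%, 10.8% and 21.7% of the 295 and 41.9%, 64.0% and 36.4% of the other lists. The median change of the higher genes was 0.46 in TG on TRF, 0.29 in TG on ALF, 0.21 in NTG on TRF and 0.18 in NTG on ALF; since the genes were chosen by their call in TG on TRF, this order favours that group.

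No gene passed a test of a difference between TG on TRF and TG on ALF, NTG on TRF or the mean of the other 3 groups. A difference from NTG on ALF alone was not tested. The limma test called 0 of 14260 genes against TG on ALF, 0 against NTG on TRF and 0 against the mean of the other 3 groups, with 2.33%, 4.35% and 4.80% of genes at an unadjusted p under 0.05 and smallest adjusted p of 1, 0.535 and 0.118. With voom weights on recovered whole multiples, each count was also 0. The groups were not alike in choroid plexus, though none of its 16 markers was called in any group. The median change of these markers was 0.26 in TG on TRF, -1.77 in TG on ALF, -0.47 in NTG on TRF and -0.37 in NTG on ALF. The glucocorticoid list had medians of 0.75 in TG on TRF, 0.37 in TG on ALF, 0.26 in NTG on TRF and 0.19 in NTG on ALF, and none of its members passed a test of the difference. Dbp changed by 1.55 in TG on TRF, against 1.53 in TG on ALF, 1.39 in NTG on TRF and 1.48 in NTG on ALF, and Calr by -0.60, against -0.59 in TG on ALF, -0.68 in NTG on TRF and -0.54 in NTG on ALF.

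Among the genes with the smallest p in those tests, Cdkn1a stood first. Its change was 1.05 in TG on TRF, against -0.41 in TG on ALF, -0.39 in NTG on TRF and -0.72 in NTG on ALF, a difference from the mean of the other groups of 1.56 ± 0.32 (adjusted p = 0.12). Fibin, a secreted protein known from zebrafish fin development, had 154, 169, 152, 143 and 173 normalized counts at ZT12, against 52.3 to 101.3 (median 78.7) at ZT0 in TG on TRF (change 1.04 ± 0.25), while the change was -0.18 in TG on ALF, -0.25 in NTG on TRF and 0.12 in NTG on ALF (difference 1.15 ± 0.28, adjusted p = 0.37). Pnpla2 changed by 0.78 in TG on TRF, against 0.23 in TG on ALF, -0.01 in NTG on TRF and 0.02 in NTG on ALF (difference 0.70 ± 0.18, adjusted p = 0.37), and Angptl4 by 1.19, against -0.41 in TG on ALF, -0.20 in NTG on TRF and -0.48 in NTG on ALF (difference 1.55 ± 0.40, adjusted p = 0.37). Both code for proteins of lipid use, and neither difference passed.

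The other genes of the difference tests were Itgam, Armh4, Adra2a, Cdc42ep3, Cilp2 and Kank2. Itgam changed by -0.58 in TG on TRF, against -0.10 in TG on ALF, 0.10 in NTG on TRF and -0.17 in NTG on ALF (difference -0.53 ± 0.13, adjusted p = 0.37). Without library ZT12_126, its difference passed both against NTG on TRF (-0.83, adjusted p = 0.0027) and against the mean of the others (-0.68, adjusted p = 0.0044), and that of Cdkn1a passed against the mean of the others (1.72, adjusted p = 0.02). Library ZT12_126 had the ZT12 value nearest the ZT0 animals in both genes (Itgam 1123 normalized counts), so leaving it out enlarges both changes. Leaving out any other single library gave no call in these difference tests. Armh4 changed by -0.50, against -0.13 in TG on ALF, -0.06 in NTG on TRF and 0.02 in NTG on ALF (adjusted p of the difference 0.37), and Cdc42ep3, a CDC42 effector, by 0.59, against 0.12 in TG on ALF, -0.24 in NTG on TRF and -0.09 in NTG on ALF (0.61; its call in TG on TRF ended without ZT12_24 or ZT0_211). Adra2a, the alpha-2A adrenergic receptor, was not called in TG on TRF (0.40, adjusted p = 0.12), against -0.33 in TG on ALF, -0.10 in NTG on TRF and -0.14 in NTG on ALF (adjusted p of the difference 0.66). Cilp2 and Kank2 were not called in TG on TRF (changes 0.72 and 0.07, adjusted p = 0.13 and 0.86), and their differences from TG on ALF, 1.39 and 0.86, had an adjusted p of 1.

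**Figure D4:**
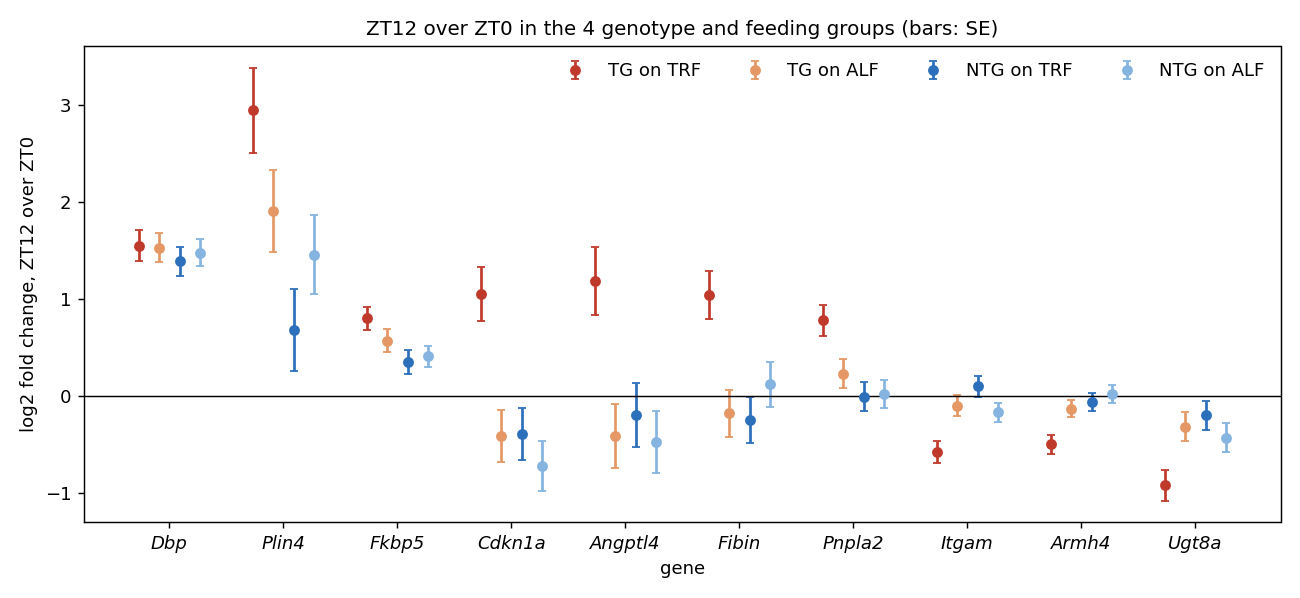
Log2 fold change of ZT12 over ZT0 (y axis, with SE bars) of 10 genes in TG on TRF, TG on ALF, NTG on TRF and NTG on ALF. The Dbp estimates lie between 1.39 and 1.55 in the 4 groups, while Cdkn1a, Angptl4 and Fibin have positive estimates in TG on TRF, though no difference passed the test at an adjusted p under 0.05.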

How the data were processed

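Per the labels' protocols, the hippocampus of 1 hemisphere per mouse gave poly-A libraries, read from both ends over 150 bases. Per the submitters' processing notes, the authors used HISAT2, featureCounts and DESeq2 on build GRCm38, with no versions stated; annotation and strand setting are not given in the sources used here. The authors deposited a table of normalized counts, a signal in which each library's counts are divided by a factor, for 14260 genes (lowest mean 40.9). Values were whole multiples of a step in 70 of 70 libraries (tolerance 0.01), from which depth was estimated.

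Log2(normalized count + 1) was fitted in R 4.3.3 by limma 3.58.1 (trended, robust variance estimate) to 16 group means over 69 animals. Library 232R, in NTG on TRF at ZT12, was averaged with 232. It was taken as a second library of animal 232, which the labels do not state. Tests are two-sided with Benjamini-Hochberg adjustment over 14260 genes, threshold 0.05. The fit was tested on simulated data. P-values weigh each change against a spread between animals that is pooled over the 16 groups, not against that of the compared animals alone. The members, the 37 gene lists and the named genes were chosen with earlier results of these data known. Named were the 12 smallest p in each direction, the clock genes, up to 4 genes of each other list, 5 of each difference test and the 5 largest changes in each direction; other list members were added after their values were seen. Of the symbols, 97.6% matched RefSeq. Upstream sequences are RefSeq's. Some genes are not reported here.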

Additional observations from a re-analysis of the deposited data

Results flagged for a closer look

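In a screen of 216 groups of values, of named genes and of 2 library measures at ZT12 or ZT0, 11 had a library far from the others (Dixon's test at its 95% level), or 5.09%, and chance flags about 1 in 20. Library ZT0_323 stood above the rest in Plin4 (486 normalized counts, others 151 to 191), Txnip (1403, others 663 to 801) and the level of the glucocorticoid list (10.8, others 10.1 to 10.3), and below them in Slc7a5 (1120.2, others 1674 to 2004).

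At ZT12, library ZT12_104 was low in Hlf (5755 normalized counts) and high in Herpud1 (2471.5), and library ZT12_24 was high in Stip1 (6507). Library ZT12_220 was low in Cx3cr1 (1382), library ZT12_121 in Hnrnpc (5915) and library ZT12_126 in Cilp2 (48.3). At ZT0, library ZT0_129 was high in Dbp (1115), with the others at 742 to 842. Rn45s was 3.68% and 4.48% of libraries ZT0_321 and ZT0_323, and its part in these values was not tested.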

How the results depend on the processing

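No paired analysis was possible because the replicate numbers are animal numbers that the groups do not share. A fit of the 11 libraries alone called 192 genes in all, array weights called 1079 (and 4 genes in the test against the other 3 groups: P2ry13, Cdkn1a, Ddc and Gabrr2), and leaving out the ZT0 animals numbered above 300 left 235, against 506 as reported. Leaving out each library gave 236 to 680 called genes, 0 to 1 genes differing from NTG on TRF and 0 to 2 from the other 3 groups. The other settings, voom included, which was added after seeing the data, did not move the count by over 1.5 times. The split of higher and lower calls moved by under 10 percentage points with each scaling. Without the ZT0 animals numbered above 300, Rora stood at 0.09, Kank2 at -0.02 and Thy1 at -0.04. With single libraries left out, none of these 3 nor Ttr was called: Rora ran from -0.33 to 0.00, Kank2 from -0.04 to 0.19, Thy1 from -0.05 to 0.09, Ttr from -0.50 to 1.93, and the choroid plexus level from -0.34 to 0.96. The median change of all genes stayed between -0.002 and 0.005 in every setting. Whether depth limits the calls was not tested. The cause of the dependence on single libraries was not tested.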
